A study of Mus musculus with 21 samples.

Results

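The expression of 9 genes of the type I interferon response was examined in gastrocnemius muscle of mice that differed in training history: the transcription factors Irf7 and Irf9, the membrane proteins Ifitm2, Ifitm3, Bst2 and Ly6e, the ubiquitin-like protein Isg15, and the RNA-binding proteins Ifit1 and Ifit3. They were taken by symbol from the deposited count table, and all 9 of 9 were found among its 40853 genes and passed the filter on low counts, as did 16129 genes in all. The genes were picked with earlier results of these data known, and the rule itself compares them over the training groups, so the members were chosen by their size-factor normalized counts in the 3 groups and their differences are a description without a test. The samples were RNA from the medial belly of the muscle of 21 female C57BL/6NJ mice, with 7 mice per group and a separate library for each. Active mice ran on a treadmill for 6 weeks, Activity Reduction mice ran for 4 weeks and then rested for 2 weeks, and Inactive mice went untrained for the whole 6 weeks. Mice were 10 weeks old at the start, and training was given on 5 days per week in sessions of up to 40 min. Each session began with a slower warm-up, and the rest was run at about 70% of maximal speed. The time at that speed was lengthened over the first weeks. All 3 groups, the Inactive group included, ran a final maximal test 48 to 72 h before the muscle was taken, and all were fasted for 5 to 6 h. The tissue was whole muscle, so fewer cells of a type and less RNA per cell cannot be told apart in any value given here.

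Type I interferons are secreted proteins that cells release after sensing foreign or misplaced nucleic acid. They bind a receptor of the subunits IFNAR1 and IFNAR2, and kinases at the receptor, TYK2 among them, then activate the transcription factor ISGF3, which holds STAT2 and IRF9. ISGF3 binds the interferon-stimulated response element in the promoters of many genes, whose products block viral entry, replication and release, and resting cells hold a low level of many of these transcripts through tonic signalling. Several of the same genes also respond to interferons of other types.

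Depth ranged from 38482455 to 59785132 counts per library, with a median of 49284630. By 24 genes typical of the liver, 8 libraries held more and 13 held fewer liver transcripts (the liver division), and the albumin gene Alb had a median of 784 CPM (a count relative to the sum of its library) in the former and 118 CPM in the latter. The 8 libraries were those of the 8 lowest animal numbers in the labels. They held 5 of the 7 Active, 2 of the 7 Activity Reduction and 1 of the 7 Inactive mice, so the members are also described with this division in the model, and likewise the counts of the gene lists. The muscle markers Acta1, Ckm, Myh4, Myh1, Tnnt3 and Mylpf were all counted in every library, and their summed normalized counts lay between 6261100 and 8179610. Mylpf had only 92 to 179 raw counts per library, where Myh1, the next lowest, had 143867 to 262846. The cause of the low Mylpf counts was not tested.

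Relative to transcript length, the membrane proteins stood above the other 5 genes. In the Inactive group the mean level per kilobase of the canonical transcript, with counts scaled to CPM, was 18.0 ± 2.17 for Ifitm2, 12.3 ± 0.615 for Ly6e, 12.2 ± 1.18 for Ifitm3 and 7.20 ± 1.13 for Bst2 (SD, n = 7). Ly6e and Ifitm3 differed by less than their spread. The same measure was 2.25 ± 0.15 for Irf9, 1.72 ± 0.276 for Ifit3, 0.955 ± 0.172 for Irf7, 0.848 ± 0.391 for Isg15 and 0.197 ± 0.0529 for Ifit1 (SD, n = 7). Irf7 and Isg15 likewise lay within each other's spread, and Ifit1 was lowest on this scale with a canonical transcript of 7421 bases, against 782 to 2784 bases for the other members. Raw counts ran from 12 to 60 per library for Isg15 and from 1380 to 1997 for Ly6e. The coefficient of variation within groups was 43.1% for Isg15, where counting error alone gives 17.2%, and 7.65% for Ly6e, where counting error gives 2.53%. These counting errors take every count as independent. How read pairs were counted is not given in the sources used here, so the errors may be larger.

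The genes lie at several places in the mouse genome (GRCm39, GENCODE annotation). Ifitm2 (chr7:140534738-140536228) and Ifitm3 (chr7:140589499-140591282) lie close together on the minus strand of the chromosome that also carries Irf7 (chr7:140842619-140846398, minus strand), and Ifit3 (chr19:34560899-34566443) and Ifit1 (chr19:34618271-34632174) lie close together on the plus strand. Isg15 (chr4:156283883-156285303), Bst2 (chr8:71986895-71990114), Irf9 (chr14:55841028-55847812) and Ly6e (chr15:74826860-74847454) lie on other chromosomes. Some counts are uncertain because of near copies and overlaps. Of the Ifit3 transcript, 98.4% matched the transcript of its paralog Ifit3b at an identity of at least 95%, so reads of the pair may have been split or discarded. By the same measure 61.6% of the Isg15 transcript matched the pseudogene Gm9706. Of the Ifitm2 transcript, 43.1% matched the pseudogene Gm11951 and 42.3% matched Gm5331. These pseudogenes were not among the counted genes, and reads they share with Isg15 or Ifitm2 may also have been discarded. No stretch of at least 75 bases at that identity was shared between Ifitm2 and Ifitm3. Opposite-strand long noncoding genes overlap 60.9% of the exon bases of Ifitm3, 31.1% of Isg15, 29.3% of Ifitm2 and 10.2% of Ly6e, and on the same strand Gm45717 overlaps 26.8% of Ifitm2 and Rnf31 overlaps 4.9% of Irf9. Whether counting used strand is not given in the sources used here.

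Of the 8 members with a RefSeq promoter window, 6 held a core of the interferon-stimulated response element, and these stretches are shown because the pathway's own factor, with Irf9 as a subunit, is known to bind such sequence. Windows ran from 250 bases before to 50 bases after the gene start, and the search was for GAAA, any 2 bases and GAAA again, or TTTC, any 2 bases and TTTC, which is the same motif on the opposite strand. Matches may overlap. Capitals mark the matches, the sequence is given 5′ to 3′ on the strand of the gene, and each RefSeq window (GRCm38.p6) was found once, letter for letter, on the same chromosome of GRCm39, whose coordinates are given.
Ifitm2 (chr7:140535901-140535930): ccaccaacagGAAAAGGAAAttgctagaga
Ifitm3 (chr7:140590628-140590656): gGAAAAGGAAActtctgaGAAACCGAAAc
Bst2 (chr8:71990211-71990266): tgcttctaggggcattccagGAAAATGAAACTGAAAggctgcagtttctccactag
Isg15 (chr4:156285312-156285373): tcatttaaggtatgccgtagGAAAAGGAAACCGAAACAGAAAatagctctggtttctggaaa
Ifit1 (chr19:34618165-34618233): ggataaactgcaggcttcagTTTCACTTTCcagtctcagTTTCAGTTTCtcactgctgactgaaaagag
Ifit3 (chr19:34560753-34560836): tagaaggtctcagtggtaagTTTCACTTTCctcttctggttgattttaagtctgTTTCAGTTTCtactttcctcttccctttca
Isg15 held 3 overlapping matches that start 78, 72 and 66 bases before the gene start, and Bst2 held 2 overlapping matches. Ifit1 and Ifit3 each held 2 separate matches on the opposite strand, with the same letters in both genes. The 2 matches of Ifitm3 lay just after the start, and the 1 match of Ifitm2 lay before the RefSeq start but inside a transcript of the GENCODE annotation. No match was found in the windows of Irf7 and Irf9. Among all RefSeq promoters, 3.44% of 32851 windows and 3.99% of 27025 genes held a match. Of the 90 other genes of the interferon pathway with a window, 42.2% did.

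**Figure D1:**
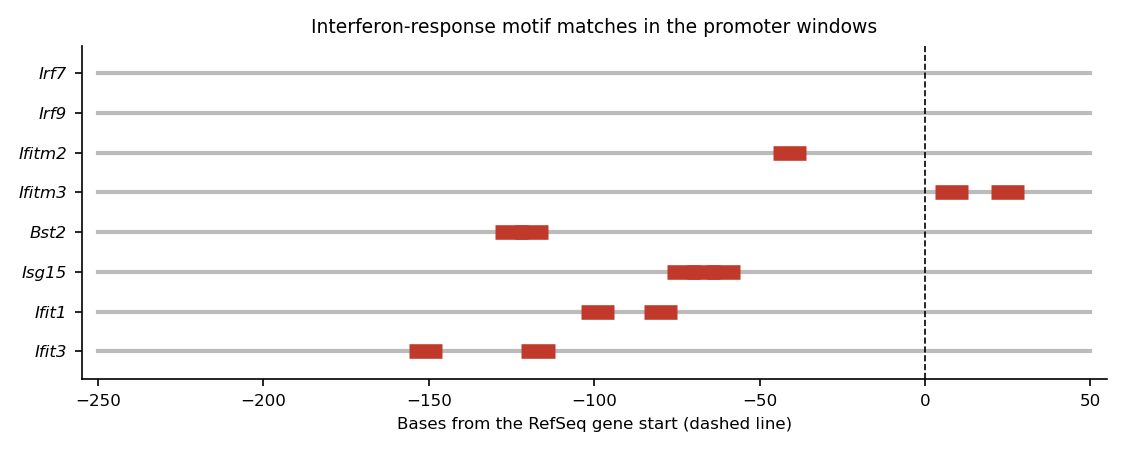
Positions of the motif matches (red) in the promoter windows (grey) of the 8 members with a RefSeq window, in bases from the gene start (dashed line at 0). Matches lie between 156 bases before the start in Ifit3 and 29 bases after it in Ifitm3, and Irf7 and Irf9 have none.

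Of the 9 genes, Irf7 had the highest Active mean relative to its Inactive mean. It encodes the factor that drives interferon production and is itself interferon-induced. Normalized counts of Irf7 (counts divided by DESeq2 size factors) had a lowest value, median and highest value of 84.3, 114 and 137 in Inactive mice. They were 105, 153 and 289 in Active mice and 93.4, 123 and 156 in Activity Reduction mice. The groups overlapped, and the value of 289 belonged to Active replicate 4, with the next Active mouse at 163. The Active mean was 42.8% above the Inactive mean, a log2 fold change of 0.52 ± 0.18 (SE, from edgeR), which was 0.31 without Active replicate 4. Ifitm3 had 0.37 without that mouse, above Irf7. The log2 fold change of Irf7 was -0.35 ± 0.18 for Activity Reduction against Active and 0.17 ± 0.18 for Activity Reduction against Inactive, and the former was -0.16 without that mouse.

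Irf9, the DNA-binding subunit of ISGF3, varied less. Its normalized counts had a lowest value, median and highest value of 267, 310 and 332 in Inactive mice, of 303, 356 and 434 in Active mice, and of 281, 314.7 and 361 in Activity Reduction mice. The Active group reached higher than the others but overlapped with both. Its log2 fold change was 0.25 ± 0.083 for Active against Inactive and -0.20 ± 0.083 for Activity Reduction against Active (SE, from edgeR). Within the 13 libraries with fewer liver transcripts, however, the 2 Active mice averaged 309.9 and the 6 Inactive mice 309.98 normalized counts of Irf9, and 5 of the 7 Active mice lay outside that division.

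Among the membrane proteins, Ifitm2 and Ifitm3, which restrict the fusion of viral envelopes with endosomal membranes, had higher medians in Active mice. Normalized counts of Ifitm3 had a lowest value, median and highest value of 680, 751 and 860 in Inactive mice. They were 745, 1047 and 1139 in Active mice and 627, 747 and 962 in Activity Reduction mice. Every Active mouse but replicate 6, the lowest, was above every Inactive mouse. The log2 fold change of Ifitm3 was 0.40 ± 0.10 for Active against Inactive, -0.37 ± 0.10 for Activity Reduction against Active and 0.03 ± 0.10 for Activity Reduction against Inactive (SE, from edgeR). Ifitm2 had 772, 840 and 1039 normalized counts (lowest, median, highest) in Inactive mice, 982, 1067 and 1176 in Active mice, and 747, 889 and 1043 in Activity Reduction mice. Its lowest Active mouse was above 6 of the 7 Inactive mice, and the log2 fold change was 0.28 ± 0.079 for Active against Inactive and -0.25 ± 0.079 for Activity Reduction against Active.

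Ly6e, a lipid-anchored surface protein that impairs entry of several viruses, was the most highly counted member and the one in which the Active and Inactive mice did not overlap, although by a margin under 1 count. Its normalized counts had a lowest value, median and highest value of 1292, 1434 and 1478.5 in Inactive mice. They were 1479, 1818 and 1948 in Active mice and 1347, 1467 and 1728 in Activity Reduction mice. Genes without overlap and with the Active group higher made up 7 of 16129, or 0.0434% of genes tested, and since the rule compared these groups nothing is read from that share. The log2 fold change of Ly6e was 0.32 ± 0.059 for Active against Inactive, -0.22 ± 0.059 for Activity Reduction against Active and 0.09 ± 0.059 for Activity Reduction against Inactive (SE, from edgeR). In the 13 libraries with fewer liver transcripts, the Active mean stood to the Inactive mean at a log2 ratio of 0.17, from 2 and 6 mice.

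Bst2, which encodes tetherin and holds budding virions at the cell surface, had normalized counts of 235, 273 and 363 (lowest, median, highest) in Inactive mice, 274, 351 and 518 in Active mice, and 209, 324 and 406 in Activity Reduction mice. Groups overlapped over most of their range, and the highest value was again that of Active replicate 4. Its log2 fold change was 0.37 ± 0.16 for Active against Inactive and -0.24 ± 0.16 for Activity Reduction against Active (SE, from edgeR), and the latter was -0.14 without Active replicate 4. The liver division moved with Bst2: its mean was 384 in the 5 Active libraries with more liver transcripts against 321.5 for the other 2, and 397 against 277 in Activity Reduction mice. With the division as a covariate, the log2 fold change of Bst2 for Active against Inactive was 0.14 ± 0.15.

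Isg15, Ifit1 and Ifit3 are among the genes most strongly induced by interferon, and their Active means were 3.62% (Isg15), 21.5% (Ifit1) and 2.77% (Ifit3) above the Inactive means. Isg15, a ubiquitin-like protein that is conjugated to other proteins, had 12.0, 29.96 and 56.2 normalized counts (lowest, median, highest) in Inactive mice, 18.5, 29.3 and 69.4 in Active mice, and 19.8, 39.4 and 46.4 in Activity Reduction mice. The groups overlapped almost entirely, and 1 mouse, Active replicate 4, stood above all others. The log2 fold change of Isg15 for Active against Inactive was 0.05 ± 0.31 with all libraries and -0.22 without Active replicate 4. The standard error of Isg15 was thus about as large as the fold changes of Ly6e and Ifitm2.

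Ifit3, which with Ifit1 recognises foreign RNA ends, had normalized counts of 147, 171 and 215 (lowest, median, highest) in Inactive mice, 124, 184 and 242 in Active mice, and 129, 184 and 215 in Activity Reduction mice. Its log2 fold change was 0.05 ± 0.14 for Active against Inactive and -0.01 ± 0.14 for Activity Reduction against Active (SE, from edgeR), and the groups overlapped throughout. Without Active replicate 5, the highest Active mouse for Ifit3, these were -0.04 and 0.07. For Ifit1 the normalized counts were 47.1, 68.8 and 109 in Inactive mice, 56.0, 78.2 and 135 in Active mice, and 53.5, 71.3 and 96.7 in Activity Reduction mice. The log2 fold change of Ifit1 for Active against Inactive was 0.29 ± 0.21 with all libraries and 0.15 without Active replicate 5, its highest mouse. For Activity Reduction against Active it was -0.25 ± 0.21, and -0.12 without that mouse. In the 13 libraries with fewer liver transcripts, the Active mean stood to the Inactive mean at a log2 ratio of -0.29 for Ifit1, -0.14 for Ifit3 and -0.42 for Isg15, from 2 and 6 mice. These ratios have the opposite sign to those from all libraries.

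**Figure D2:**
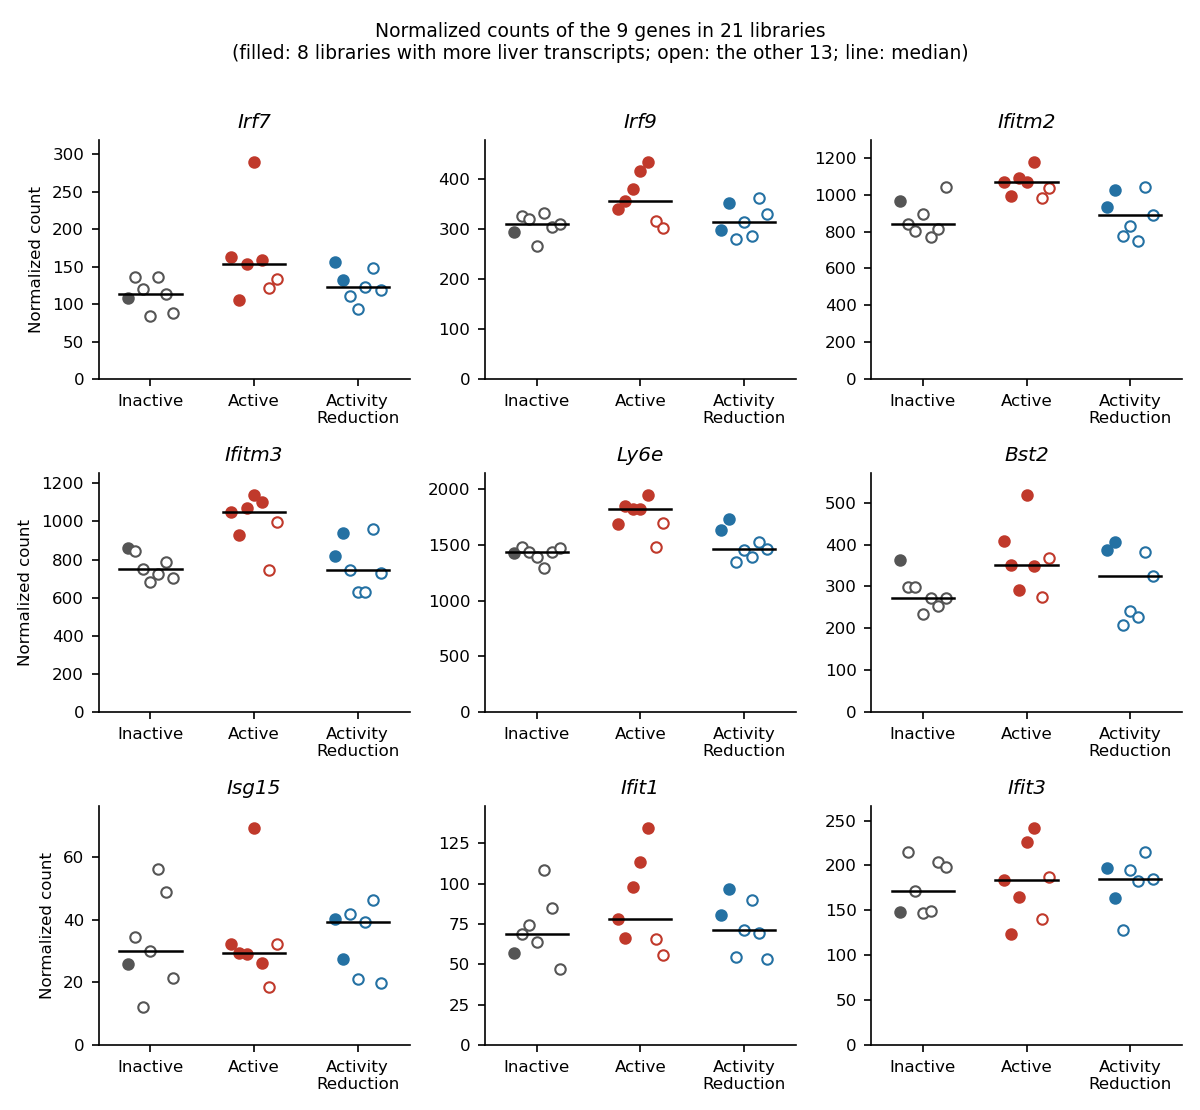
Normalized counts (y axis, from 0) of the 9 members in each library, by group, with the group median as a line. Filled points are the 8 libraries with more liver transcripts and open points the other 13. In Ly6e the lowest Active mouse (1479) lies just above the highest Inactive mouse (1478.5), while in Isg15 the ranges of the groups overlap.

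Over all 9 members, the fold change of Active against Inactive was above 0 for 9 of 9, with a median log2 fold change of 0.29, where 51.6% of all genes tested were above 0 and their median was 0.01. None of the members passed the call of edgeR (Benjamini-Hochberg adjusted p-value under 0.05 and log2 fold change over 0.25 in either direction), where 0% of all genes tested did. At an unadjusted p-value under 0.05, 6 members were higher in Active mice, beside 6.18% of all genes higher and 4.69% lower. DESeq2 on the 3 groups called 2 members, Ifitm3 and Ly6e, beside 0.524% of the genes it gave an adjusted p-value. Fitted to the Active and Inactive groups alone it called 3, with Ifitm2 added, beside 0.591% of genes. Leaving out Active replicate 6, edgeR called 1 member, Ly6e, which was the 1 gene it called of all those tested there (0.00614%). These counts come from the contrast behind the choice of members, and nothing is read from them. With the liver division in the model, 8 of 9 fold changes were above 0, with a median of 0.17, and 3 members had an unadjusted p-value under 0.05 and were higher, beside 4.24% of all genes higher and 4.27% lower. Log2 fold changes were then 0.35 ± 0.20 for Irf7, 0.17 ± 0.095 for Irf9, 0.19 ± 0.081 for Ifitm2, 0.25 ± 0.097 for Ifitm3 and 0.21 ± 0.054 for Ly6e (SE, from edgeR). For Ifit1, Ifit3 and Isg15 it was 0.06 ± 0.23, 0.04 ± 0.17 and -0.03 ± 0.37. In the 13 libraries with fewer liver transcripts 6 of 9 were above 0, with 1 member higher at an unadjusted p-value under 0.05, beside 3.02% of the genes tested in those libraries higher and 3.06% lower.

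After 2 weeks without training, the mean of each member lay 1.79% to 11.8% above that of the Inactive group. With the liver division in the model, 7 of 9 fold changes of Activity Reduction against Inactive were above 0 (median log2 0.03), and in the 13 libraries with fewer liver transcripts 4 of 9 were (median -0.0024). For Activity Reduction against Active, the fold change was below 0 for 9 of 9 members, with a median log2 fold change of -0.24. That of Isg15 was -0.00027 and turned above 0 with DESeq2 size factors, so its direction is not fixed. Nor is that of Ifit3, at -0.0051, which was 0.0010 with the liver division in the model and 0.07 without Active replicate 5. With the liver division in the model the median was -0.14, 7 of 9 were below 0 and 3 had an unadjusted p-value under 0.05, beside 5.18% of all genes lower and 5.54% higher (edgeR). In the 13 libraries with fewer liver transcripts 5 of 9 were below 0 and 0 had such a p-value, beside 2.39% of genes lower and 2.02% higher. This comparison and the previous one share the 7 Active mice, so a high Active value enters both with opposite sign. Again edgeR called 0 members, beside 0% of all genes, 4 members had an unadjusted p-value under 0.05 and were lower in Activity Reduction mice, beside 6.44% of all genes lower and 6.89% higher, and DESeq2 on the 3 groups called 1, Ifitm3, beside 0.791% of genes. DESeq2 on the Activity Reduction and Active groups alone called 0 members, beside 1.03% of genes. For Activity Reduction against Inactive, the median log2 fold change was 0.05 and the range was 0.03 to 0.17. In that comparison edgeR called 0 members, beside 0.0124% of all genes (Smyd2 and Kcnj11), DESeq2 called 0, beside 0.812% of genes, and 0 members had an unadjusted p-value under 0.05, beside 4.19% of all genes higher and 3.54% lower. An unadjusted or adjusted p-value above the threshold does not show that the groups were alike, and the standard errors of 0.059 to 0.31 bound what could be seen.

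**Figure D3:**
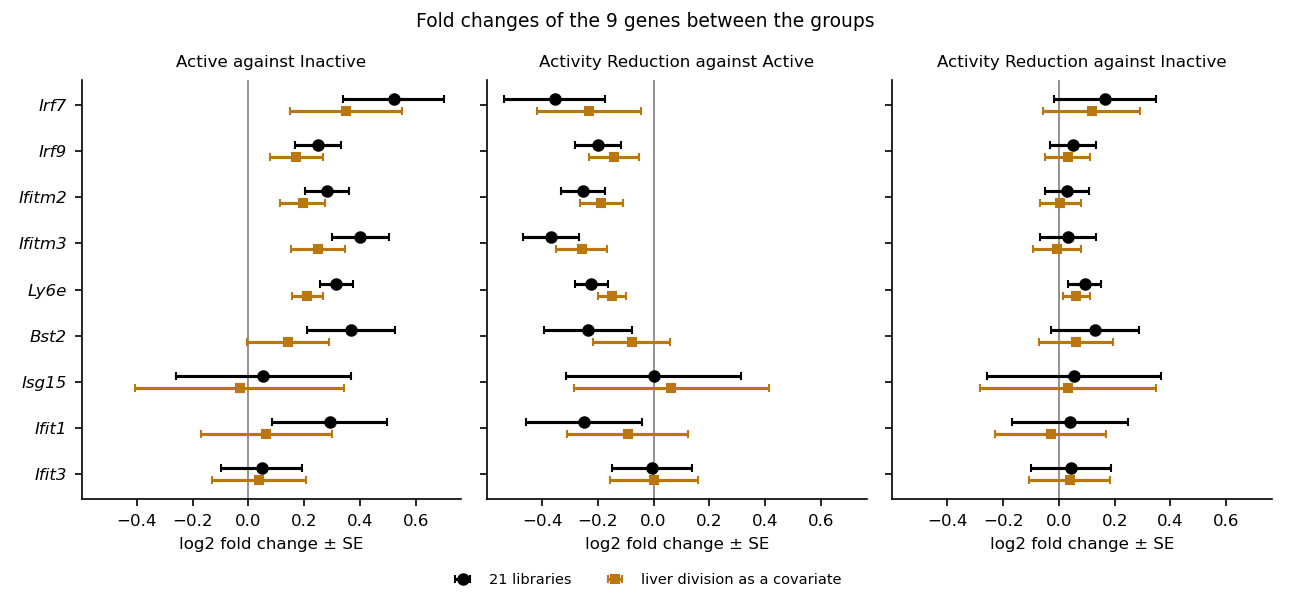
Log2 fold change with its standard error (x axis) for each member in the 3 comparisons, from all 21 libraries (black circles) and with the liver division in the model (brown squares). Values for Active against Inactive run from 0.05 for Ifit3 to 0.52 for Irf7, and most shrink toward 0 with the covariate.

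Within groups, several members were high or low together in single mice. Active replicate 4 was above the mean of its group for 9 of 9 members and was the highest Active mouse for 4 of them. Active replicate 5 was the highest for the other 5. Active replicate 6 was below the mean of its group for all 9 and the lowest for 5, and in the Activity Reduction group replicate 6 was above the group mean for 8 and the highest for 5. Across the 21 libraries, after each group's mean was removed, the 36 pairs of members had Pearson correlations from -0.10 to 0.75 with a median of 0.43, and 34 were above 0. Ifitm3 with Bst2 (0.75) and Ifitm3 with Ly6e (0.70) were closest, and Ifitm2 with Isg15 (-0.10) was the most distant. The points share the depth and liver content of each library, and with the liver division removed as well the median was 0.45 and 28 of the 36 were above 0.

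**Figure D4:**
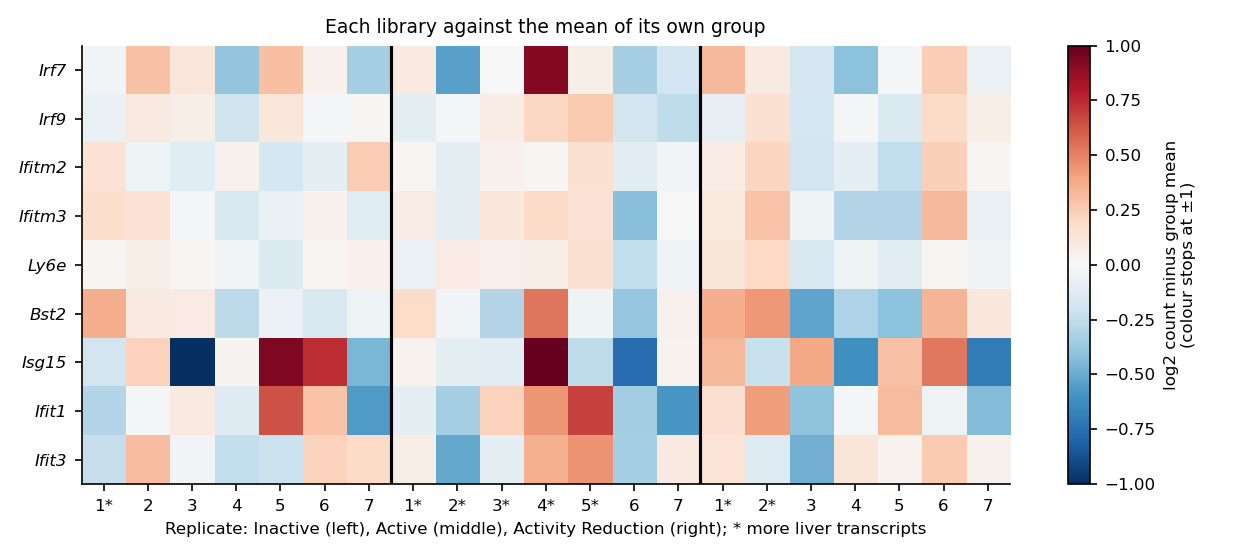
Log2 normalized count of each member (rows) in each library (columns) minus the mean of its own group, from blue (lower) to red (higher). Asterisks mark the 8 libraries with more liver transcripts. The column of Active replicate 4 is above the group mean in all 9 rows and that of Active replicate 6 is below it in all 9.

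The other genes of the pathway were taken from a list of 113 symbols in 7 roles, written with earlier results of these data known, of which 110 were in the table and 85 were tested. None of the 18 type I interferon genes listed passed the filter. Of these, 16 had no count in any library, and the other 2, Ifnab and Ifnz, had 2 counts each over all 21 libraries. A count of 0 allows up to 3 counts in a library, which is 0.0502 to 0.0780 CPM at these depths.

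For Active against Inactive, 23 of the 85 genes (27.1%) had an unadjusted p-value under 0.05 and a higher level in Active mice, beside 6.18% of all genes, and 0 were lower. The median log2 fold change of the 85 was 0.16, and 74 were above 0. After Benjamini-Hochberg adjustment edgeR called 0 of the 85, beside 0% of all genes. DESeq2 on the 3 groups called 2, Uba7 and Ube2l6, beside 0.524% of the genes it gave an adjusted p-value. For Activity Reduction against Active, 25 of 85 (29.4%) had an unadjusted p-value under 0.05 and a lower level in Activity Reduction mice, beside 6.44% of all genes, 0 were higher, the median was -0.20 and 72 were below 0. Here edgeR and DESeq2 on the 3 groups each called 0, beside 0% and 0.791% of genes. For Activity Reduction against Inactive, 1 was higher and 2 were lower at an unadjusted p-value under 0.05, beside 4.19% and 3.54% of all genes. Both tools called 0 there, beside 0.0124% (edgeR) and 0.812% (DESeq2) of genes. With the liver division in the model, the count for Active against Inactive was 15 higher and 1 lower. Of all genes, 4.24% were then higher and 4.27% lower. The count was 7 higher and 2 lower within the 13 libraries with fewer liver transcripts, beside 3.02% and 3.06% of the genes tested there. For Activity Reduction against Active the count with the liver division was 15 lower and 1 higher, beside 5.18% and 5.54% of all genes. Within the 13 libraries it was 3 lower and 0 higher, beside 2.39% and 2.02% of the genes tested there.

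Of the signalling genes around Irf9, Stat2 had the largest fold change. The receptor subunits Ifnar1 and Ifnar2 had log2 fold changes of 0.00 ± 0.045 and 0.12 ± 0.089 for Active against Inactive (SE). Tyk2 had -0.14 ± 0.068. Stat2, which joins Irf9 in ISGF3, had 333 ± 40.6 normalized counts in Inactive mice, 418 ± 61.8 in Active mice and 357 ± 37.1 in the Activity Reduction group (SD, n = 7). Its log2 fold change was 0.34 ± 0.096, with an unadjusted p-value of 0.00201 and an adjusted p-value of 0.234 (edgeR). It was the 1 gene of the 6 in this role with an unadjusted p-value under 0.05 in that comparison. Stat2 had a log2 fold change of 0.22 (unadjusted p = 0.0409, edgeR) when the liver division was in the model, and Tyk2 then had -0.21 (unadjusted p = 0.00793), lower in Active mice.

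Of the 5 other interferon regulatory factors, Irf5 and Irf8, both found mainly in immune cells, had an unadjusted p-value under 0.05 for Active against Inactive. Irf5 had a log2 fold change of 0.36 ± 0.16 there and of -0.54 ± 0.16 for Activity Reduction against Active (SE; adjusted p = 0.424 and 0.154, edgeR). Irf8 had 0.21 ± 0.088 (adjusted p = 0.413, edgeR). Irf1 and Irf3 had 0.20 ± 0.11 and -0.04 ± 0.055. Of the 14 sensors of nucleic acid and their adaptors, Ddx58, which encodes the RNA sensor RIG-I, and Sting1, the adaptor of the DNA-sensing pathway, had an unadjusted p-value under 0.05 and log2 fold changes of 0.33 ± 0.13 and 0.50 ± 0.20 (adjusted p = 0.383 and 0.386, edgeR). The RNA sensors Ifih1 and Tlr3 had 0.21 ± 0.12 and 0.30 ± 0.15. Ddx58 and Sting1 were no longer under that threshold when the liver division was in the model, at 0.11 (unadjusted p = 0.373) and 0.23 (unadjusted p = 0.275, edgeR). Tlr3 then had 0.37 (unadjusted p = 0.0403), and Irf5 and Irf8 stayed under 0.05 at 0.39 (unadjusted p = 0.0342) and 0.25 (unadjusted p = 0.0257, edgeR).

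The genes for the enzymes that attach Isg15 to proteins had larger fold changes than Isg15. Uba7, the activating enzyme, had 241 ± 44.1 normalized counts in Inactive mice, 320 ± 24.5 in Active mice and 275 ± 45.1 in the Activity Reduction group (SD, n = 7). The log2 fold change of Uba7 for Active against Inactive was 0.42 ± 0.11, with an adjusted p-value of 0.207 in edgeR and 0.0459 in DESeq2. Ube2l6, the conjugating enzyme, had 103 ± 22.5, 160.3 ± 37.8 and 111 ± 23.2 normalized counts in the same order, and its log2 fold change was 0.64 ± 0.18 (adjusted p = 0.224 in edgeR and 0.0378 in DESeq2). With the liver division in the model the log2 fold changes were 0.44 for Uba7 and 0.46 for Ube2l6. The ligase gene Herc6 had 0.22 ± 0.16, and Usp18, which removes Isg15 and blocks the receptor, had -0.12 ± 0.19. Whether the difference of Uba7 or Ube2l6 exceeds that of Isg15 was not tested. None of the 3 inhibitors tested had an unadjusted p-value under 0.05: Socs1, Socs3 and Pias1 had log2 fold changes of 0.00 ± 0.47, 0.15 ± 0.21 and -0.02 ± 0.067 for Active against Inactive (edgeR).

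Of the 53 other interferon-stimulated effectors, 16 were higher in Active than in Inactive mice and 20 were lower in Activity Reduction than in Active mice at an unadjusted p-value under 0.05, beside 6.18% and 6.44% of all genes. The counts were 9 and 13 with the liver division in the model, beside 4.24% and 5.18%. They were 5 and 2 in the 13 libraries with fewer liver transcripts, beside 3.02% and 2.39% of the genes tested there. Slfn5, a Schlafen-family restriction factor, had a log2 fold change of 0.25 ± 0.066 for Active against Inactive and -0.24 ± 0.066 for Activity Reduction against Active (SE; adjusted p = 0.182 and 0.143, edgeR). Oasl2, of the oligoadenylate synthetase family, had 0.46 ± 0.16 and -0.53 ± 0.16 (adjusted p = 0.329 and 0.154, edgeR). Adar, which edits double-stranded RNA, had 0.29 ± 0.096 and -0.27 ± 0.096 (adjusted p = 0.311 and 0.220, edgeR). Trim21, a cytosolic antibody receptor, had 0.38 ± 0.12 and -0.10 ± 0.12 (adjusted p = 0.288 and 0.757, edgeR). Oasl2 had 0.24 (unadjusted p = 0.14) and -0.37 (unadjusted p = 0.0204, edgeR) once the liver division was in the model. Slfn5 had 0.20 and -0.20 and Adar 0.32 and -0.29 in that model, and Trim21 had 0.46 for Active against Inactive, each with an unadjusted p-value under 0.05.

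**Figure D5:**
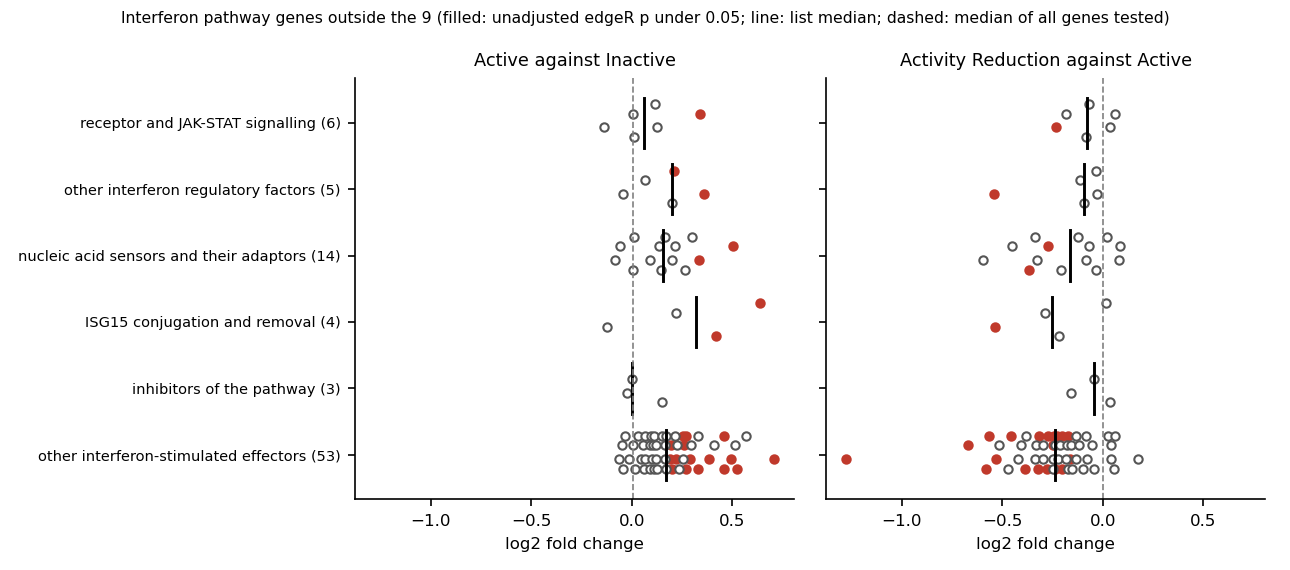
Log2 fold change (x axis) of the 85 pathway genes outside the 9 members, by role, for Active against Inactive (left) and Activity Reduction against Active (right). Filled points have an unadjusted edgeR p-value under 0.05, the solid line is the median of the role and the dashed line that of all genes tested. The median of the effectors is 0.17 on the left and -0.24 on the right, and the 7 Active libraries enter both panels.

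Markers of cell types other than muscle fibres were measured beside these genes. Of 6 macrophage markers, 3 (Csf1r, Mrc1 and Cd163) had an unadjusted p-value under 0.05 and were higher in Active than in Inactive mice, and 3 were lower in Activity Reduction than in Active mice, where 6.18% and 6.44% of all genes were. The remaining markers Adgre1, Cd68 and Lyz2 had log2 fold changes of 0.41, -0.07 and 0.05 for Active against Inactive. They had -0.48, 0.12 and -0.02 for Activity Reduction against Active, and none had such a p-value (edgeR). The 6 summed to 1289 to 2621 normalized counts in Inactive mice, 1561 to 2634 in Active mice and 898 to 2632 in Activity Reduction mice. Of 6 endothelial markers, 4 (Pecam1, Cdh5, Kdr and Vwf) were higher in the former comparison and 3 were lower in the latter at an unadjusted p-value under 0.05, and their sums were 9911 to 12456, 10920 to 13646 and 9900 to 11564 in the Inactive, Active and Activity Reduction groups. The remaining markers Tie1 and Egfl7 had log2 fold changes of -0.03 and -0.01 in the former comparison and -0.0007 and 0.02 in the latter. Of 4 fibroblast markers, 1 was higher and 3 were lower. With the liver division in the model, 0 endothelial, 2 macrophage and 1 fibroblast markers were higher in Active than in Inactive mice. In Activity Reduction against Active mice, 2, 3 and 2 were lower (edgeR, unadjusted p-value under 0.05). Of all genes, 4.24% were higher in the former comparison and 5.18% lower in the latter. In the 13 libraries with fewer liver transcripts, 0 markers of the 3 types were higher in the former comparison, beside 3.02% of genes. There, 1 endothelial, 1 macrophage and 0 fibroblast markers were lower in the latter, beside 2.39% of genes. All 24 liver genes had a higher mean in Active than in Inactive mice. Their sums were 11140 to 110059 in Inactive, 10881 to 97268 in Active and 8794 to 77923 in Activity Reduction mice. The medians of these sums were 13515, 80819 and 17359 in the same order. Markers of lymphocytes, plasmacytoid dendritic cells and neutrophils were near the floor, with no more than 37 counts of any T cell, 14 of any B cell, 20 of any plasmacytoid dendritic cell and 14 of any neutrophil marker in a library, and Ly6g at 0 in all 21. The part of macrophages, endothelial cells, fibroblasts and liver transcripts in the differences of the 9 genes was not tested.

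The genes whose level varied most like the mean of the 9 members over the 21 libraries, with each group's mean removed, were Inhbe (Pearson r = 0.82), Cyp4a32 (0.80), Tlnrd1 (0.80), Igsf5 (0.76), Mup20 (0.75), Rgl3 (0.75), Igtp (0.75), Spint2 (0.74), Ahr (0.74) and Ncf4 (0.73). Of the 100 genes most like the mean, out of 16120, 3 were among the 85 pathway genes and 8 among the 24 liver genes. The 85 pathway genes had a median r of 0.26, and 71 were above 0, while all genes tested outside the members had a median of 0.00 and 50.4% were above 0. With the liver division removed as well, the 100 genes held 1 pathway gene and 2 liver genes. Of the 10 genes, 2 then stayed among the first 10, Inhbe and Tlnrd1. The median r of the pathway genes was then 0.26, beside 0.02 for all genes tested outside the members. The list also depended on the measure. With Spearman in place of Pearson correlation, 2 of the 10 genes stayed among the first 10, Tlnrd1 and Inhbe. Without removal of the group means 3 did, Cyp4a32, Inhbe and Ncf4.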

How the data were processed

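The authors isolated RNA from the medial gastrocnemius, made poly(A) libraries and processed the reads with fastp (trimming), STAR (alignment to GRCm39) and featureCounts (gene counts). Tool versions and the strand setting are not given in the sources used here. The deposited values were raw counts per gene, without normalization. A second deposited table, named for normalized values, held the same counts and was not used. Groups and replicate numbers were taken from the labels, and each mouse gave 1 library.

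Normalized counts were the counts divided by DESeq2 (version 1.42.0) size factors. Fold changes, standard errors and p-values came from 1 quasi-likelihood model of the 21 libraries in edgeR (version 4.0.16, R 4.3.3) with TMM normalization and the filterByExpr filter, fitted to all genes and adjusted by Benjamini-Hochberg over all 16129 tested. A gene was called at an adjusted p-value under 0.05 and a log2 fold change over 0.25 in either direction. The edgeR fit was tested on simulated counts for Active against Inactive, with shifts larger than any fold change of the members. The other steps were not tested on simulated data. Alternatives were DESeq2 on 3 and on 2 groups, other size factors, no filter, the liver division as a covariate, a replicate block and leaving out each library. A fit of the 13 libraries with fewer liver transcripts was added after seeing the data.

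The 9 members, the pathway list and the marker lists were chosen with earlier results of these data known. Within each role, the 4 or fewer pathway genes with the smallest unadjusted p-value over the 3 comparisons were named, and the 10 genes most like the members. Smyd2 and Kcnj11 were named after their values were seen. Gene positions and canonical transcripts came from GENCODE M39, near copies from blastn 2.17.0 (identity of at least 95% over at least 75 bases), and promoters from RefSeq, where 8 of the 9 symbols matched. Levels per length divide by the length of the canonical transcript, so they depend on its annotation.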

Additional observations from a re-analysis of the deposited data

Results flagged for a closer look

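Among 27 sets of 7 values, 1 for each member in each group, 2 held a mouse far from the others by Dixon's criterion for 7 samples, which chance gives in about 1 set in 20. Both were Active replicate 4. Its normalized count of Isg15 was 69.4, where the next highest Active mouse had 32.2. For Irf7 it was 289, where the next highest had 163. This library was above its group's mean for 9 of 9 members and was 1 of the 8 with more liver transcripts.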

How the results depend on the processing

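Over all genes, edgeR called 0 for Active against Inactive, 2 for Activity Reduction against Inactive and 0 for Activity Reduction against Active. DESeq2 called 62, 21 and 115 with 3 groups and 77, 43 and 139 with the 2 groups compared. DESeq2 size factors in the edgeR fit gave 0 for Activity Reduction against Inactive and 1 for Activity Reduction against Active. For Activity Reduction against Inactive, the count was 1 with the liver covariate and 0 in the 13 libraries. Leaving out 1 library at a time gave 0 to 1, 0 to 6 and 0 to 9 in the 3 comparisons. The cause of these differences was not tested.

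Of the 85 pathway genes, DESeq2 called 2 for Active against Inactive with 3 and with 2 groups. It called 1, Irf5, for Activity Reduction against Active with 2 groups (log2 fold change -0.54, adjusted p = 0.0469). Of the genes given an adjusted p-value, these fits called 0.524%, 0.591% and 1.03%. All 21 fits that left out 1 library called 0 of the 85 with edgeR in each comparison. At an unadjusted p-value under 0.05 (edgeR), the number of pathway genes was 23, 3 and 25 with all libraries, and leaving out 1 library gave 16 to 25, 2 to 6 and 18 to 30. The 6 came without Activity Reduction replicate 3. For Active against Inactive it was 9 in the 13 libraries, and for Activity Reduction against Active it was 16 with the liver covariate and 3 in the 13 libraries, where fewer samples were tested.

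The labels number the mice 1 to 7 in each group, but not every same-numbered pair correlated above 0.1 and 3 libraries correlated best with their own number, so the numbers are not read as pairs. With the replicate block, 4 genes were called for Activity Reduction against Inactive, and 23, 3 and 28 pathway genes had an unadjusted p-value under 0.05.

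Of the members' fold changes over all alternatives, 752 moved by less than 1 SD between replicates and 4 moved by more, all 4 in the 13 libraries: Ly6e (0.17), Ifit1 (-0.28) and Irf9 (0.00) for Active against Inactive and Irf9 (0.01) for Activity Reduction against Active. Most alternatives left out 1 library, and leaving out 1 mouse of 7 cannot shift a group mean by 1 SD. The 752 therefore does not measure stability. Without Active replicate 4, Irf7 went from 0.52 to 0.31 and Isg15 from 0.05 to -0.22 for Active against Inactive, and neither counted as moved. The lowest counts were those of Isg15 and Ifit1, at 12 to 60 and 50 to 138 per library. Calls of the members differed by tool: DESeq2 called 2 for Active against Inactive with 3 groups and 3 with the 2 groups compared, and 1 and 0 for Activity Reduction against Active, while edgeR called 1, Ly6e, without Active replicate 6.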

Other observations

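Ifit1 had an even count in 20 of the 21 libraries (95.2%), where 54% of all counts of at least 20 in the table were even. For the other members the share of even counts was between 47.6% and 76.2%. The parity was noticed after the values were seen.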
